A study of Mus musculus with 6 samples.

Results

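The genes described here are 28 genes of fatty acid oxidation and of the PPAR-alpha response in mouse liver. They were listed by name, and all 28 were found by symbol among the 16426 genes of the authors' deposited table. The study's labels describe 6 liver samples of male C57/BL mice, with 3 in a CCl4 group given 20% CCl4 for 10 weeks until the stage labelled hepatofibrosis and 3 in a normal group given saline. CCl4 (carbon tetrachloride) is a solvent that cytochrome P450 enzymes of the liver turn into toxic radicals, and repeated dosing is a standard way to scar the mouse liver. The design also names a group given CCl4 and the flavonoid didymin, which is not analysed here. The table compares one set of 3 libraries, ly_A (set A), with another, ly_B (set B), and neither name matches the label of any sample. Which set is the CCl4 group is therefore not known, and the differences below compare the sets as named, with no statement on what CCl4 did. For the same reason the values of single libraries entered no calculation. No level per library, standard deviation or read depth is given, and the liver label could not be checked against marker levels.

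Fatty acids are broken down in mitochondria after carnitine carries them across the inner membrane, where each round of beta-oxidation removes a fragment as acetyl-CoA. Peroxisomes shorten very long and branched chains, and enzymes of the endoplasmic reticulum, recovered as microsomes, hydroxylate the far end of the chain (omega-oxidation) to give acids that peroxisomes then shorten. PPAR-alpha is a nuclear receptor that binds fatty acids and, with its partner RXR, turns on genes of all 3 routes in the fasted liver of the mouse. Its binding site, the PPAR response element, is built from a direct repeat of the letters AGGTCA with 1 base between the copies.

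The promoters of 3 members held the closest matches to that repeat and are shown for that reason. The 250 bases before the gene start were searched on both strands for AGGTCA, then any 1 base, then AGGTCA. Of 23 members found in RefSeq's promoter table (build GRCm38.p6), 0 held the repeat exactly or with 1 mismatch, and 3 held it with 2 mismatches among its 12 fixed letters (13.0%). Of all 27025 genes in that promoter table, 11 (0.0407%) held it exactly, 153 (0.566%) with at most 1 mismatch and 1005 (3.72%) with at most 2. The 3 members were Plin2 (chr4:86670060-86670309, minus strand), Creb3l3 (chr10:81092592-81092841, minus strand) and Acot4 (chr12:84038129-84038378, plus strand). The capitals mark the 13 bases of the best match, whose first base lies at -225 in Plin2, -209 in Creb3l3 and -13 in Acot4, counted from the gene start. It reads on the strand opposite to the gene in Plin2 and Acot4. RefSeq gives Creb3l3 a second start, and the window before it (chr10:81098873-81099122, minus strand) had a best match with 4 mismatches and no half-site.
Plin2: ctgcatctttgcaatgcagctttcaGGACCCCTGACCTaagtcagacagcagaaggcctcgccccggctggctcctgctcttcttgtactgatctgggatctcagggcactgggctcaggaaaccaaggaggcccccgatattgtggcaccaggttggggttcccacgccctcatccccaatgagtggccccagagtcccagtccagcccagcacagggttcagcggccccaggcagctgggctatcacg
Creb3l3: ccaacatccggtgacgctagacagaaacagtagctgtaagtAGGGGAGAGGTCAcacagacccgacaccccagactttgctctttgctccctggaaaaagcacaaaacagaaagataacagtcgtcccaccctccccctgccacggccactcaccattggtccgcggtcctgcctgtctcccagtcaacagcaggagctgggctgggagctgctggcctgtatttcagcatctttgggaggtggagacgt
Acot4: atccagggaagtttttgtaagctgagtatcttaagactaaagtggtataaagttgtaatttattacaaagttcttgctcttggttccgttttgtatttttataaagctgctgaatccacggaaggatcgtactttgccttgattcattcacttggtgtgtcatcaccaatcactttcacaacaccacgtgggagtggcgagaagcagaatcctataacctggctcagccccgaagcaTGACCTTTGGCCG
The single half-site AGGTCA, which overlaps the repeat in these 3 promoters, was found on either strand in 6 of the 23 members (26.1%) and in 4260 of all 27025 genes (15.8%). The others with a half-site were Acadm, Acadvl and Cpt1a. Of the 6 members with a half-site, Creb3l3 and Acot4 were called higher in set A and Plin2 and Acadvl higher in set B per the authors' deposited table, while Acadm and Cpt1a were not called. A match of letters does not show binding, and response elements further from the start lie outside this window. Acaa2, Cyp4a10, Cyp4a14, Decr1 and Vnn1 are not among the 23.

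Among the 28 members, the 3 of peroxisomal and the 2 of microsomal oxidation that passed the test were higher in set A. Most mitochondrial members did not pass, which also holds for most of all genes tested. A gene is called here when its adjusted p per the authors' deposited table is under 0.05, and a positive log2 fold change means higher in set A. Of the 28 members, 12 were called higher in set A against 2 higher in set B per the authors' deposited table, and 14 were not called. Of all 14114 genes with an adjusted p below 1 in that table, 18.1% were called higher in set A, and 17.7% were called in the direction of set B. The count of each step below is to be read beside those shares. Among genes of the same routes outside the 28, 9 of 20 mitochondrial and 9 of 26 peroxisomal ones were called higher in set A. Called higher in set B were 1 and 2 of them per the authors' deposited table. The log2 fold change was positive for 21 of the 28 members and for 53.1% of all genes tested, and its median was 0.42 for the members and 0.07 for all genes tested, per the authors' deposited table. In bulk liver RNA, a lower share of a cell type and less RNA per cell cannot be told apart. Of the genes that mark cells of the liver, 4 of 5 endothelial and 3 of 6 macrophage markers were called higher in set A per the authors' deposited table. That table called 2 of 7 hepatocyte markers higher in each set, and 1 of 6 stellate cell and 1 of 5 cholangiocyte markers higher in set B. The part that cell makeup has in the differences below was not tested.

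The table gives no error of the fold changes. If its p-values come from the two-sided Wald test that is the default of DESeq2, each one fixes a standard error (SE), which for the 28 members ran from 0.15 to 0.86 with a median of 0.24 on the log2 scale. The intervals below rest on that assumption, which no source used here states.

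**Figure D1:**
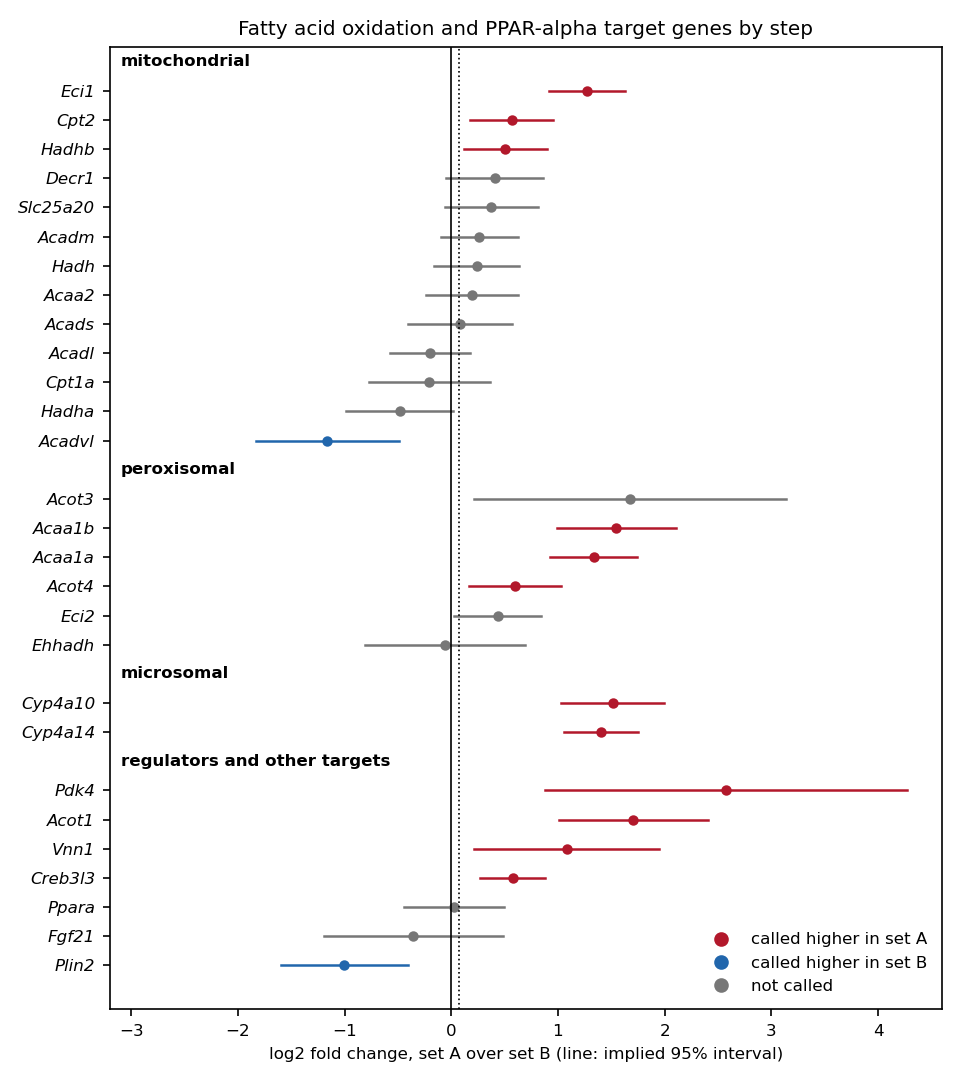
Log2 fold change (x axis, set A over set B) of each of the 28 genes per the authors' deposited table, by step. Points are the deposited values, lines the 95% intervals implied by the deposited p, the solid line is 0 and the dotted line the median of all genes tested (0.07). Red genes were called higher in set A, blue ones higher in set B and grey ones not called. Both microsomal genes lie above 1. Of the mitochondrial genes, 9 of 13 are grey, and most of all genes tested were not called either.

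The mitochondrial route held 13 members, of which 3 were called higher in set A, 1 higher in set B and 9 not called, with a median log2 fold change of 0.24 per the authors' deposited table. Of the 3 members of the carnitine entry step, 1 was called. Cpt1a, the rate-limiting carnitine palmitoyltransferase of the outer membrane, stood at -0.20 per the authors' deposited table (implied 95% interval -0.77 to 0.36, adjusted p = 0.612). Slc25a20, the carrier that swaps acylcarnitine for carnitine across the inner membrane, stood at 0.38 per the authors' deposited table (-0.06 to 0.81, adjusted p = 0.178). Cpt2, which rebuilds the acyl-CoA inside, was called higher in set A by 1.48-fold per the authors' deposited table (log2 0.57, implied SE 0.20, adjusted p = 0.0169). The intervals of these 3 genes overlap, and the difference between them was not tested.

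The acyl-CoA dehydrogenases, which take the first oxidation step and divide the work by chain length, included the only mitochondrial member called higher in set B. Acadvl, for very long chains, was 2.24-fold higher in set B per the authors' deposited table (log2 -1.16, implied SE 0.34, adjusted p = 0.00343). The dehydrogenases for shorter chains were not called. Acadl (long chains) stood at -0.20, Acadm (medium) at 0.26 and Acads (short) at 0.08 per the authors' deposited table, with adjusted p of 0.444, 0.263 and 0.826. Their implied intervals ran from -0.57 to 0.18 for Acadl, from -0.10 to 0.62 for Acadm and from -0.40 to 0.57 for Acads, so a 2-fold difference lies outside each of them. Of the 50-base windows of the Acadvl transcript, 24% also occur on the opposite strand of a transcript of Dvl2, a Wnt signalling gene that overlaps it. Dvl2 was not called per the authors' deposited table (log2 0.14, adjusted p = 0.732). Without strand, which no source used here states, reads from that stretch cannot be told apart.

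The trifunctional protein, which carries out the later steps on long chains, is built from the products of Hadha and Hadhb. Hadhb, the thiolase subunit, was called higher in set A by 1.42-fold per the authors' deposited table (log2 0.51, implied SE 0.20, adjusted p = 0.034). Hadha, the hydratase and dehydrogenase subunit, had a value of the opposite sign that did not pass per the authors' deposited table (log2 -0.48, implied SE 0.26, interval -0.99 to 0.02, adjusted p = 0.129). The difference between the values of Hadha and Hadhb was not tested. The genes lie head to head, with their starts 273 bases apart on chromosome 5 in GRCm38.p6. The upstream stretch that they share is printed here for that reason. It is the 250 bases before Hadha (chr5:30154981-30155230, minus strand), with no capitals since no half-site was found.
Hadha: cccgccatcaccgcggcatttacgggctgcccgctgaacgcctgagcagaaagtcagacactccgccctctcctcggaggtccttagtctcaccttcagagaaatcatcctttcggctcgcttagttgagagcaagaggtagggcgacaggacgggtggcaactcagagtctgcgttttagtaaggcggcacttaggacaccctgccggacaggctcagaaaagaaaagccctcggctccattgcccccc
Windows of 50 bases that recur elsewhere make up 62.4% of the Hadhb transcript, 61.5% in Gm13910 alone, and the value of Hadhb is uncertain for that reason. The treatment of reads with several matches is not given in the sources used here.

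Of the enzymes that close the cycle or handle double bonds, 1 of 4 was called. Eci1, the isomerase that moves double bonds so that unsaturated chains can enter the cycle, was 2.41-fold higher in set A per the authors' deposited table (log2 1.27, implied SE 0.18, adjusted p = 1.49e-10). It was the largest difference of the mitochondrial members. Decr1, the dienoyl-CoA reductase for polyunsaturated chains, stood at 0.41 (-0.05 to 0.86, adjusted p = 0.162) per the authors' deposited table. The short-chain dehydrogenase Hadh stood at 0.24 and the thiolase Acaa2 at 0.20 per the authors' deposited table, with adjusted p of 0.372 and 0.51.

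The peroxisomal route held 6 members, of which 3 were called higher in set A against 0 higher in set B, with a median log2 fold change of 0.96 per the authors' deposited table. The 3 called, Acaa1a, Acaa1b and Acot4, share 35.1%, 46.2% and 14.4% of their windows with other genes. Of the 6 members, only Ehhadh, which was not called, shares less than 10%. Acaa1a and Acaa1b encode the peroxisomal thiolases that release acetyl-CoA at the end of each round. Acaa1a was 2.52-fold higher in set A per the authors' deposited table (log2 1.33, implied SE 0.21, adjusted p = 4.87e-09). Acaa1b, the copy known in mouse liver for a strong response to PPAR-alpha activators, was 2.93-fold higher in set A per the authors' deposited table (implied 95% interval 1.99-fold to 4.30-fold). Ehhadh, the bifunctional hydratase and dehydrogenase just before the thiolase, was not called per the authors' deposited table (log2 -0.06, interval -0.81 to 0.69, adjusted p = 0.925). Ehhadh is itself a textbook PPAR-alpha target of rodent liver, and its interval does not overlap those of the thiolases, although the difference between the genes was not tested. Eci2, an isomerase found in peroxisomes and mitochondria, stood at 0.44 per the authors' deposited table (0.03 to 0.84, adjusted p = 0.0852).

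The thiolase copies are similar enough that reads could match both, and whether this tied their values was not tested. Their coding sequences match at 1228 of 1272 bases (96.5%), and 34% of the windows of Acaa1a occur in Acaa1b. The stretch printed here has 4 differences in 60 bases, at coding bases 79 to 138 of both genes on chromosome 9, from the GENCODE M21 transcripts. It was chosen as the first stretch of 60 bases with at least 4 differences, so it does not show their usual spacing. Capitals mark the bases that differ.
Acaa1a: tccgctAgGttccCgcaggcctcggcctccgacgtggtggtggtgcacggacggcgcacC
Acaa1b: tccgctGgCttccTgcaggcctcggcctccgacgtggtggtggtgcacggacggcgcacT
A further 10.7% of the Acaa1b windows occur on the opposite strand of Dlec1 transcripts. Dlec1 was itself called higher in set A per the authors' deposited table (log2 5.13, adjusted p = 9.54e-17).

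Acyl-CoA thioesterases split acyl-CoA into free fatty acid and CoA, and their genes stand in a row on chromosome 12 in the order Acot2, Acot1, Acot4, Acot3, Acot5, Acot6. Acot1, the cytosolic form, was 3.27-fold higher in set A per the authors' deposited table (implied 95% interval 2.01-fold to 5.31-fold). Acot4, a peroxisomal form, was 1.51-fold higher in set A per the authors' deposited table (log2 0.59, implied SE 0.22, adjusted p = 0.0234). Acot3, also peroxisomal, had a value nearly as large as that of Acot1 that did not pass per the authors' deposited table (log2 1.68, implied SE 0.75, interval 0.21 to 3.14, adjusted p = 0.0649). The neighbours had values of both signs. Acot6 was called higher in set B at -1.26 (adjusted p = 0.0274), while Acot2, the mitochondrial form, stood at -0.50 (adjusted p = 0.344) and Acot5 at 1.41 (adjusted p = 0.411) per the authors' deposited table. Acot1 shares 23.9% of its windows with Acot2, and its coding sequence matches that of Acot3 at 84% and that of Acot4 at 74.1% of aligned bases, so single values in this row are uncertain.

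**Figure D2:**
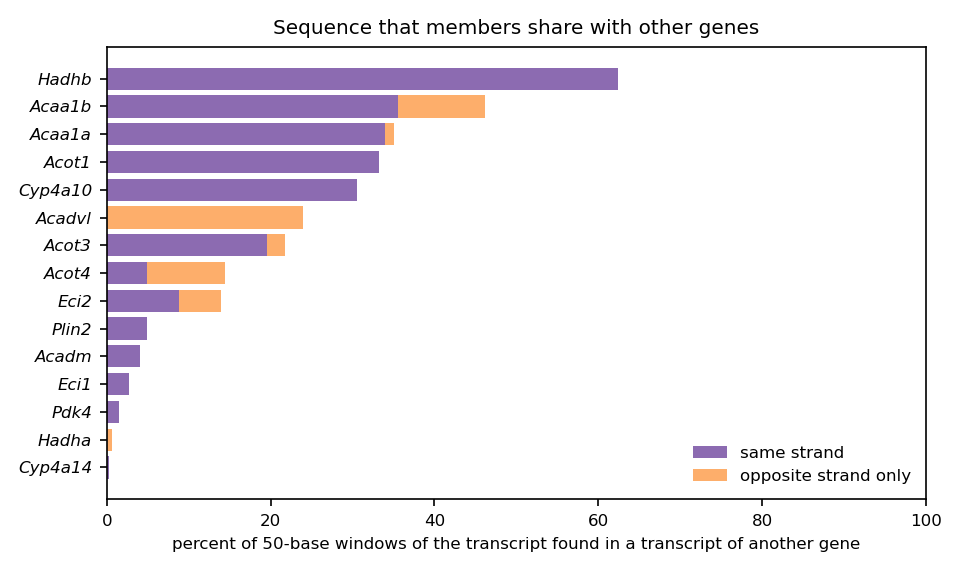
Percent of the 50-base windows of each member's longest coding transcript (x axis) that also occur in a transcript of another gene in GENCODE M21. Purple marks the same strand and orange the opposite strand only. The 13 members with no such window are left out, and Hadhb is highest at 62.4%.

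Both microsomal members were higher in set A. Cyp4a10 and Cyp4a14 encode omega-hydroxylases of fatty acids and are among the most inducible PPAR-alpha targets of mouse liver. Cyp4a14 was 2.64-fold higher in set A per the authors' deposited table, where its adjusted p was the lowest among the 28 members (log2 1.40, implied SE 0.18, adjusted p = 3.72e-13). Cyp4a10 was 2.86-fold higher in set A per the authors' deposited table (log2 1.51, implied SE 0.25, adjusted p = 2.17e-08). Of the Cyp4a10 windows, 25% occur in Cyp4a32 and 15.3% in Cyp4a31, while for Cyp4a14 the share found in any other gene was 0.245%. Cyp4a32 was called higher in set A (log2 1.91, adjusted p = 2.51e-19) and Cyp4a31 was not called (log2 0.15, adjusted p = 0.775) per the authors' deposited table.

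**Figure D3:**
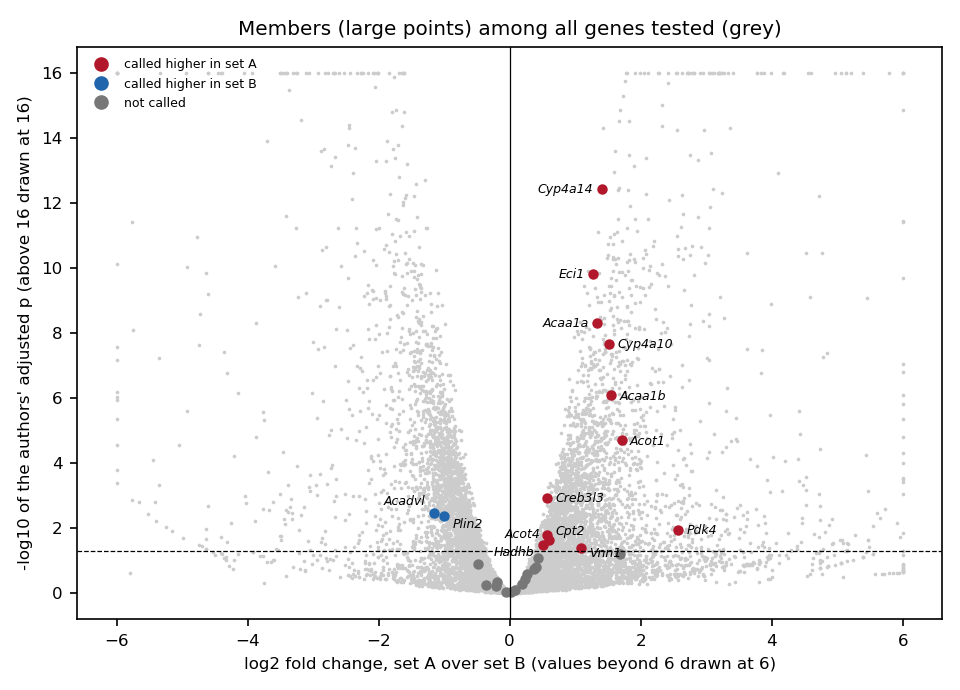
Log2 fold change (x axis, set A over set B) against -log10 of the adjusted p (y axis) per the authors' deposited table, with the 28 genes as large points over all 14114 genes tested in grey. The dashed line is an adjusted p of 0.05. Cyp4a14 and Eci1 stand highest among the members, and Pdk4 lies furthest right.

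Among regulators and other PPAR-alpha targets, 4 of 7 members were called higher in set A, 1 higher in set B and 2 were not called per the authors' deposited table. Ppara itself, which encodes the receptor, stood at 0.03 per the authors' deposited table (implied interval -0.45 to 0.50, adjusted p = 0.947), and its sign flips when the median of all genes tested is subtracted. The interval corresponds to between 0.734 and 1.41 times the level of set B. Creb3l3, a transcription factor of the endoplasmic reticulum that acts with PPAR-alpha on fasting genes, was 1.49-fold higher in set A per the authors' deposited table (log2 0.57, implied SE 0.15, adjusted p = 0.00117). Fgf21, the fasting hormone that both factors induce in liver, was not called per the authors' deposited table (log2 -0.35, interval -1.19 to 0.49, adjusted p = 0.547). Of the receptor, the second factor and the hormone, only Creb3l3 was called.

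Pdk4 encodes the kinase that shuts off pyruvate dehydrogenase so that fat replaces glucose as fuel. Its log2 fold change was the largest of the 28, with 3.34% of all genes tested lying above it, but the least precise per the authors' deposited table (2.57, implied SE 0.86). The implied interval spans 1.84-fold to 19.3-fold. Vnn1, a pantetheinase that recycles a building block of CoA, was 2.12-fold higher in set A and just under the threshold per the authors' deposited table (log2 1.08, implied SE 0.44, adjusted p = 0.0416). Plin2 coats lipid droplets and is induced by PPAR-alpha and by stored fat alike. It was higher in set B per the authors' deposited table (implied 95% interval 1.33-fold to 3.01-fold, adjusted p = 0.00421), while the other 4 called members of this group were higher in set A.

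The counts were also taken under stricter rules. At an adjusted p under 0.01 per the authors' deposited table, 7 members were higher in set A against 2 higher in set B, beside shares of 12.3% and 12.7% of all genes tested. With a difference of at least 2-fold as well as an adjusted p under 0.05, 8 and 2 members remained, against 10.9% and 7.85% of all genes tested per the authors' deposited table. Adjusted over all 16426 rows of the authors' deposited table, the counts were 12 and 2, against 15.0% and 14.6%. The 8 members called under all 4 rules were Eci1, Acaa1a, Acaa1b, Cyp4a10, Cyp4a14 and Acot1, higher in set A, and Acadvl and Plin2, higher in set B. Without the 9 members that share at least 10% of their windows with another gene, 6 were called higher in set A against 1 higher in set B of the 19 others per the authors' deposited table. Of the 9, Acadvl, called higher in set B, shares windows on the opposite strand only, and Acot4 shares 4.87% on the same strand. Windows were not counted for all genes tested, whose shares without this filter were 18.1% and 17.7%.

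Genes of the same pathway outside the 28 were read from 8 lists, with 142 of their 145 genes tested. Of these, 56 were called higher in set A against 17 higher in set B per the authors' deposited table, where all genes tested gave 18.1% and 17.7%. The count of each list below is to be read beside those shares. List medians of the log2 fold change, taken from the authors' deposited table, ran from -0.65 for FGF21 receptors to 0.94 for other microsomal genes, beside 0.07 for all genes tested.

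Of 14 other genes of microsomal oxidation, 8 were called higher in set A against 0 higher in set B per the authors' deposited table. The omega-hydroxylases Cyp4a12a at 2.75 and Cyp4a12b at 2.85 had the largest differences per the authors' deposited table, with implied SEs of 0.95 and 0.97 and adjusted p of 0.0143 and 0.0122. Cyp4a12a and Cyp4a12b are male-biased near copies of each other. Cyp4f15, a more distant hydroxylase, stood at 2.55 per the authors' deposited table (implied SE 0.24, adjusted p = 2.15e-23).

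Of 26 other peroxisomal genes, 9 were called higher in set A against 2 higher in set B per the authors' deposited table. Hacl1, a lyase of the alpha-oxidation of branched chains, was 3.56-fold and Pecr, an enoyl-CoA reductase, 3.03-fold higher in set A per the authors' deposited table (adjusted p = 0.00014 and 6.71e-10). Abcd4, whose product works in lysosomal cobalamin transport although its family imports fatty acids into peroxisomes, stood at 2.73 per the authors' deposited table (adjusted p = 2.67e-18). Abcd2, an importer of very long chains, was called higher in set B at -2.60 per the authors' deposited table (adjusted p = 1.59e-09).

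In mitochondria, 9 of 20 other tested genes of oxidation were called higher in set A against 1 higher in set B per the authors' deposited table. Etfb, a subunit of the flavoprotein that takes electrons from the acyl-CoA dehydrogenases, stood at 1.91 (implied SE 0.52, adjusted p = 0.00132) per the authors' deposited table. Hsd17b10, a mitochondrial dehydrogenase, stood at 1.61 and the thioesterase Acot13 at 1.54 per the authors' deposited table (adjusted p = 3.31e-07 and 5.91e-10). Another thioesterase, Acot9, was called higher in set B at -1.76 per the authors' deposited table (adjusted p = 1.11e-06).

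Among 20 genes for uptake and activation of fatty acids, 10 were called higher in set A against 2 higher in set B per the authors' deposited table. The transport protein Slc27a1 stood at 2.28, the carnitine transporter Slc22a5 at 1.56 and Acsm1, which activates medium chains, at 1.42 per the authors' deposited table (adjusted p at most 5e-07). The long-chain acyl-CoA synthetases were called in both directions. Acsl4, which prefers arachidonic acid, stood at -1.88 (adjusted p = 9.09e-10) and Acsl5 at -0.75 (adjusted p = 0.00148), while Acsl1, the main form of liver, stood at 0.84 (adjusted p = 0.0108) per the authors' deposited table. Acsl1 lies outside the rule for named genes and is given because it was seen beside the others.

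The ketone body list, which takes the acetyl-CoA of oxidation further, held 9 genes, with 2 called higher in set A against 3 higher in set B per the authors' deposited table. Bdh1, which makes beta-hydroxybutyrate in mitochondria, was 2.16-fold higher in set B per the authors' deposited table (log2 -1.11, adjusted p = 0.000325). Bdh2, the cytosolic dehydrogenase, stood at 1.18, and the monocarboxylate transporters Slc16a6 at -1.25 and Slc16a1 at -0.66 per the authors' deposited table (adjusted p at most 0.0333).

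**Figure D4:**
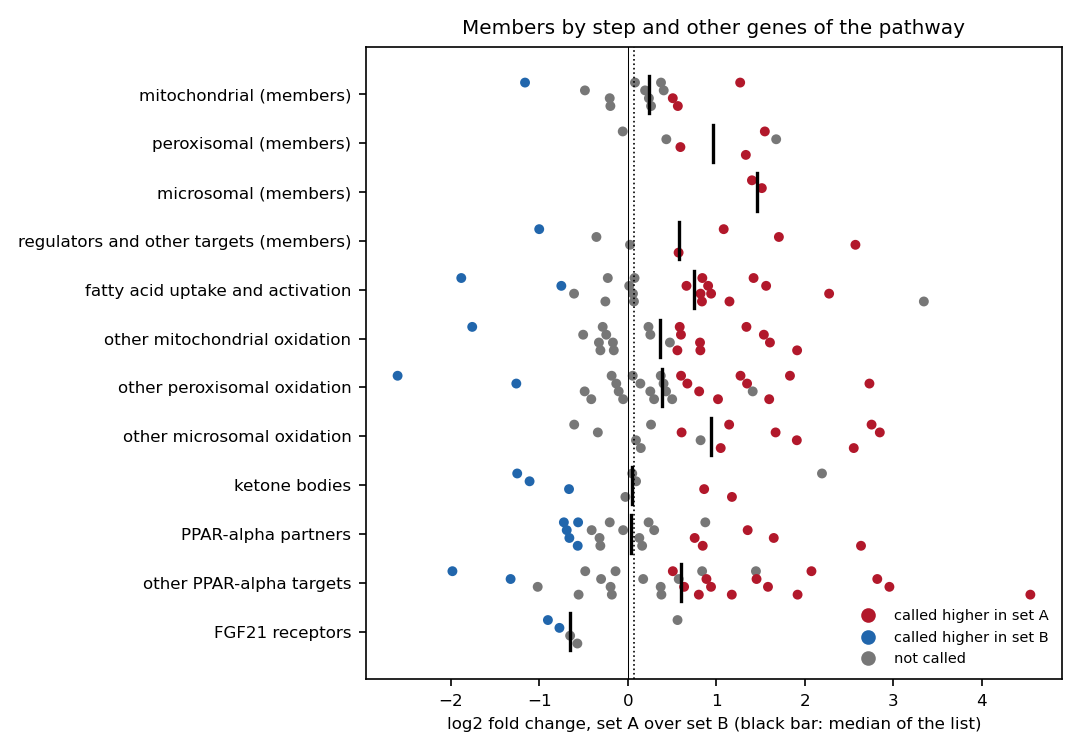
Log2 fold change (x axis, set A over set B) per the authors' deposited table for the 28 genes by step (top 4 rows) and for 8 lists of other pathway genes. Each point is a gene, black bars are medians, and the dotted line is the median of all genes tested (0.07). The median is lowest for FGF21 receptors (-0.65) and highest for the microsomal members (1.46).

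Other reported PPAR-alpha targets held 28 tested genes, with 13 called higher in set A against 2 higher in set B per the authors' deposited table. G0s2, an inhibitor of the fat-splitting lipase ATGL, was 23.4-fold higher in set A per the authors' deposited table (log2 4.55, implied SE 0.38, adjusted p = 1.94e-30). Txnip, a regulator of thioredoxin and glucose uptake, stood at 2.96 and the mitochondrial carrier Slc25a34 at 2.82 per the authors' deposited table (adjusted p = 1.72e-27 and 2.29e-22). Angptl4, the inhibitor of lipoprotein lipase, was 4.22-fold higher in set A per the authors' deposited table (log2 2.08, implied SE 0.26, adjusted p = 4.07e-14). The desaturase gene Fads2 at -1.32 and the apolipoprotein gene Apoa4 at -1.98 were called higher in set B per the authors' deposited table (adjusted p = 0.000898 and 0.00533).

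Partners of PPAR-alpha held 20 genes, with 5 called higher in each set per the authors' deposited table, beside 18.1% and 17.7% of all genes tested. The receptor's partner Rxra was not called per the authors' deposited table (log2 -0.41, implied interval -0.79 to -0.03, adjusted p = 0.0841). The coactivators Ppargc1b at 1.65 and Ppargc1a at 0.85 were called higher in set A per the authors' deposited table, with adjusted p of 0.0103 and 0.0394. Lpin1, which works with Ppargc1a as well as in lipid synthesis, stood at 2.64, and Nr0b2, the repressor SHP, at 1.35 per the authors' deposited table (adjusted p at most 0.00367). The acetyltransferase Ep300 at -0.69 and the coactivator Ncoa2 at -0.66 were called higher in set B per the authors' deposited table (adjusted p at most 0.0273). Of the 5 genes for the receptors of FGF21, 0 were called higher in set A against 2 higher in set B per the authors' deposited table, namely Fgfr4 at -0.90 and Fgfr2 at -0.77 (adjusted p at most 0.0136). Klb, the coreceptor that FGF21 needs, stood at -0.65 per the authors' deposited table (implied SE 0.29, adjusted p = 0.0613), and was added after its value was seen.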

How the data were processed

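RNA of 6 mouse liver samples was sequenced, and the labels place 3 samples in the CCl4 group and 3 in the normal group. Per the labels' protocols, Trizol was used for extraction and a NEBNext Ultra kit for the libraries. Build mm9 and DESeq2 (version not stated) appear in the submitters' processing notes. For the aligner, the counter with its use of strand, and the annotation, nothing is given in the sources used here. Per the file headers, the deposited table holds the authors' log2 fold change, p-value and adjusted p-value of ly_A against ly_B. The log2 fold change is read as ly_A over ly_B from the name of the comparison. In the first lines of the table, read by eye for the sign alone, positive values went with higher ly_A values. Beyond that look, its 18 columns of single libraries, which match no label, were not used in any step, so depth is unknown here, and no edgeR or other fit was made. The labels number the samples but do not say that each is a separate animal, so p-values measure only the spread between these libraries.

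In 2312 of 16426 rows the adjusted p was 1. In the other 14114 it equalled a Benjamini-Hochberg adjustment over those rows to a relative difference of at most 9.47e-13, and these count as tested. The members, lists and rules were chosen with earlier results of these data known, so no list was tested and no pattern is independent support. Named genes were all members, a few fixed companions including Angptl4, Rxra and Ppargc1a, and up to 3 called genes per direction and list with the largest difference. Klb, Acsl1, the neighbouring Acot and Cyp4a genes and the partners in shared windows were added after their values were seen. A few genes under this rule are not reported here, without replacement, while the list counts include them. Implied SEs are the absolute log2 fold change divided by the normal quantile of the deposited p-value. The adjustment, the SEs and the motif search were checked on simulated data. Promoters are RefSeq's (GRCm38.p6) and transcripts GENCODE M21's, both of another build than mm9, and were matched by symbol. Shared windows were counted on both strands. A protein comparison was planned and not made. Python 3.11.15, pandas 2.3.3, scipy 1.17.1 and Biopython 1.88 were used.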

Additional observations from a re-analysis of the deposited data

How the results depend on the processing

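Adjusting over every row of the table, or subtracting the median of all genes tested (0.07), kept the counts of calls in the members, their steps and the 8 lists within 1.5 times. At an adjusted p under 0.01, counts higher in set A were 7 for the members, 1 for mitochondrial members, 2 for regulators and other targets, 5 for other microsomal genes, 1 for ketone bodies and 3 for PPAR-alpha partners. Under that rule, counts higher in set B were 1 of 26 other peroxisomal genes, 2 of 20 partners and 1 of 5 FGF21 receptor genes. With a difference of at least 2-fold and an adjusted p under 0.05, the shares of all genes tested were 10.9% (set A) and 7.85% (set B). Counts higher in set A were then 1 of 13 mitochondrial members, 4 of 20 uptake and activation genes and 4 of 20 other mitochondrial genes. They were 1 of 9 ketone body genes, 3 of 20 partners and 8 of 28 other targets. Counts higher in set B were then 1 of 20 uptake and activation genes, 0 of 20 partners and 0 of 5 FGF21 receptor genes. Leaving out the 7 members of the Acaa1, Acot and Cyp4a families gave 6 of the 21 others higher in set A at an adjusted p under 0.05. The 2 members called higher in set B are not among those 7. All genes tested gave 18.1% and 17.7% at that threshold. Leaving out members that share at least 10% of windows on either strand, a choice made after the data were seen, gave 6 and 1 of the 19 others. Median centring turned the sign of uncalled values, among them Ppara to -0.0445, Slc27a5 to -0.0534, Acsl3 to -0.0110 and Hsd17b4 to -0.0135. The changed counts follow from rules that lower the threshold, add a size or remove genes, and the turned signs from subtracting 0.07.

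No paired analysis was possible because no column of a single library carries the label of a replicate. Leaving out a library, other normalizations and count filters were not run, because columns that match no sample label were left unused by choice. Whether a single library carries a value with a wide interval, such as that of Pdk4, was not tested.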
